A study of Homo sapiens with 12 samples.

Results

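The genes of cholesterol and fatty acid synthesis were followed across 12 RNA-seq libraries of WM1366, an established line of human skin melanoma cells in which the oncogene NRAS is known to be mutated. The set held 38 genes, taken by symbol for their place in the pathway, with earlier results of these data known, and all 38 were among the 12931 genes of the deposited tables. By role they were 4 genes of the SREBP system that controls the pathway, 19 genes of the sterol branch and 15 genes of the fatty acid branch. The libraries formed 3 groups of 4. R1 and R2 were WM1366 tumours that progressed as xenografts on a diet containing MEK and CDK4/6 inhibitors, and control tumours progressed on a control diet. The treatment label names 0.1 uM palbociclib, an inhibitor of CDK4 and CDK6, and 1 nM PD0325901, a MEK inhibitor, for every library of R1, R2 and control alike. The source label describes metastatic melanoma cells and the growth label a culture medium, whereas the series text describes xenograft tumours. No label says what separates R1 from R2, whether the replicates of a group came from separate tumours, or which mouse host was used. All groups derive from 1 line, and p-values measure only the spread between these libraries, which may be technical.

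Cells build cholesterol from acetyl-CoA by way of mevalonate, isoprenoid units and squalene, which is closed into lanosterol and then trimmed. Fatty acids start from the same acetyl-CoA, are assembled into palmitate, and are then elongated, desaturated and activated with coenzyme A. SREBP proteins wait in the endoplasmic reticulum as precursors bound to the escort SCAP. When membrane sterol is low, SCAP carries them to the Golgi, where proteases release the part that enters the nucleus and switches on synthesis genes. When sterol is plentiful, INSIG1 holds SCAP back, and INSIG1 is itself a target of the released factor. Transcript levels do not show how much SREBP was released.

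Values are normalised read counts, that is reads per gene scaled by the authors with a factor for each library. They are given as mean ± SD over the 4 libraries of a group or for replicates 1 to 4 in that order. Depth was 20003891 to 39009384 reads per library in the listed genes, and 1 read was worth 0.0243 to 0.0525. A gene is said to rise, fall or be called where limma gave an adjusted p under 0.05 over all listed genes, and fold changes are on the log2(value + 0.5) scale, which understates the change of low genes. Control replicates 1 and 2 differed from each other by a chi-square of 16.1 per gene and replicates 3 and 4 by 11.3, against 44.3 to 77.4 across these pairs, so the control libraries stood in 2 pairs over all genes. Pairs of R1 libraries differed by 39.9 to 114 and pairs of R2 libraries by 37.4 to 114. No pair within a group differed by less than sampling noise. Of 8 melanocyte markers only MITF and PMEL were listed, and their summed values were 42.5 to 64.8 in R1, 38.2 to 40.3 in R2 and 47.7 to 64.0 in control, while the defining markers MLANA, TYR and DCT were not analysed here. Within that sum MITF was at 23.5 ± 6.08 in R1, 30.4 ± 2.47 in R2 and 50.3 ± 9.08 in control, and PMEL at 27.1 ± 6.14 in R1, 8.81 ± 2.61 in R2 and 5.32 ± 1.15 in control, so in each inhibitor-diet group MITF fell and PMEL rose against control. Adipocyte markers, none of 6 listed, gave no value. Endothelial markers, 4 of 6 listed, summed to 375 to 499 in R1, 126 to 157 in R2 and 133 to 172 in control. This sum was mostly TIE1 (394 ± 54.6 in R1, 135 ± 14.0 in R2 and 139 ± 14.6 in control). Of the other endothelial markers EGFL7 (16.2 ± 3.32 in R1, 0.0073 ± 0.0145 in R2, 3.61 ± 1.04 in control) and PECAM1 fell in R2 against control. Fibroblast and pericyte markers, 4 of 7 listed, summed to 84.7 to 154 in R1, 100.1 to 331 in R2 and 232 to 327 in control, mostly as COL1A1. PDGFRB, in the same list, was at 5.05 ± 2.84 in R1, 0.331 ± 0.167 in R2 and 4.03 ± 2.02 in control. LUM was at 5.96 ± 3.28 in R1, 2.02 ± 0.341 in R2 and 6.66 ± 2.29 in control. RGS5 went the other way, with its highest mean in R2 (2.55 ± 1.87 in R1, 6.13 ± 2.81 in R2 and 3.66 ± 0.683 in control). Leukocyte markers, 1 of 6 listed, lay at 1.39 to 6.19 in R1, 0.349 to 0.688 in R2 and 1.12 to 3.18 in control. Keratinocyte markers, 1 of 4 listed, lay at 23.0 to 34.7 in R1, 13.8 to 21.7 in R2 and 16.0 to 18.5 in control. Mitochondrial genome transcripts took 2.17% to 3.28% of reads in R1, 4.02% to 9.63% in R2 and 5.86% to 10.9% in control. The part of these differences in the results that follow was not tested. In bulk RNA, fewer cells of a type and less RNA per cell cannot be told apart. Host cells of a xenograft would be mouse, and the only genome named in the processing notes is the human GRCh38. The marker values are therefore no measure of host cells, and the part of mouse reads in them was not tested.

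In the SREBP system SREBF1 was lower in both inhibitor-diet groups, SCAP was lower in R1, and neither SREBF2 nor INSIG1 passed the test. SREBF1 codes for SREBP-1, the form tied mainly to fatty acid synthesis. Its values were 49.3, 53.7, 113 and 102 in R1, 57.0, 66.9, 55.5 and 49.7 in R2 and 169.6, 129, 124 and 113 in control. Every R2 library lay below every control library, while R1 replicate 3 was just above the lowest control library. SREBF1 fell in R1 to 79.5 ± 32.8, against 134 ± 24.7 in control (SD, n = 4 each; log2 fold change -0.83 with an SE of 0.23 at adjusted p = 0.0108). It fell in R2 to 57.3 ± 7.18, 2.34-fold lower than in control (log2 fold change -1.21 with an SE of 0.23 at adjusted p = 0.00149). Without control replicates 1 and 2, where SREBF1 was highest among the controls, the R1 fold change was -0.67 and was not called on the 2 controls left (adjusted p = 0.100), and without replicates 3 and 4 it was -0.99 (adjusted p = 0.0252). R2 and R1 were not called different (log2 fold change -0.38, 95% interval -0.88 to 0.12, adjusted p = 0.198). The gene lies at chr17:17810399-17837002, minus strand (GRCh38), on 17p, and its isoforms SREBP-1a and SREBP-1c cannot be separated here. Of the 25 other listed genes within 1 Mb, 2 rose and 16 fell in R1 against control (median log2 fold change -0.58), and 1 rose and 19 fell in R2 against control (median -0.74). Over all listed genes 21.4% fell in R1 and 14.8% in R2, so a larger share of this region was lower along with SREBF1. The part of its position in its level was not tested. Of its exon bases 556 also belong to exons of RAI1 on the opposite strand, and the library kit does not mark strand.

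SCAP (chr3:47413694-47477126, minus strand), the escort, had 104, 102, 99.1 and 94.3 in R1, 143, 125, 163 and 143 in R2 and 140.3, 137, 147 and 133 in control. All 4 R1 libraries lay below all R2 and all control libraries, and R2 overlapped control. SCAP fell in R1 by 0.47 on the log2 scale, to 100 ± 4.35 against 139 ± 6.07 in control (SD, n = 4 each; SE 0.09, adjusted p = 0.000986). R2, at 144 ± 15.6, was higher than R1 (log2 fold change 0.51 with an SE of 0.09 at adjusted p = 0.000498), and against control its difference was 0.04, 95% interval -0.16 to 0.24, adjusted p = 0.792. SREBF2 (chr22:41833079-41907308, plus strand) codes for SREBP-2, the form tied mainly to sterol synthesis, and had 315, 455, 287 and 316 in R1, 305, 333, 355 and 332 in R2 and 330.1, 342, 517 and 476 in control. Control replicates 3 and 4 stood above every other library, and the remaining values of the 3 groups overlapped. The log2 fold change was -0.27, 95% interval -0.63 to 0.08, adjusted p = 0.194 in R1 against control and -0.30, 95% interval -0.66 to 0.05, adjusted p = 0.187 in R2 against control. INSIG1 (chr7:155297776-155310235, plus strand), the retention factor, had 54.9, 308, 263 and 287 in R1, 79.9, 240.3, 226 and 263 in R2 and 164, 169.7, 745 and 876 in control. Replicate 1 was the lowest library in both R1 and R2, and control replicates 3 and 4 stood far above all others. Its log2 fold change was -0.95, 95% interval -2.32 to 0.41, adjusted p = 0.24 in R1 against control, and -0.996, 95% interval -2.36 to 0.37, adjusted p = 0.264 in R2 against control, and both intervals include 0. Leaving out control replicates 3 and 4 turned the INSIG1 difference to 0.18 in R1 and 0.14 in R2.

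**Figure D1:**
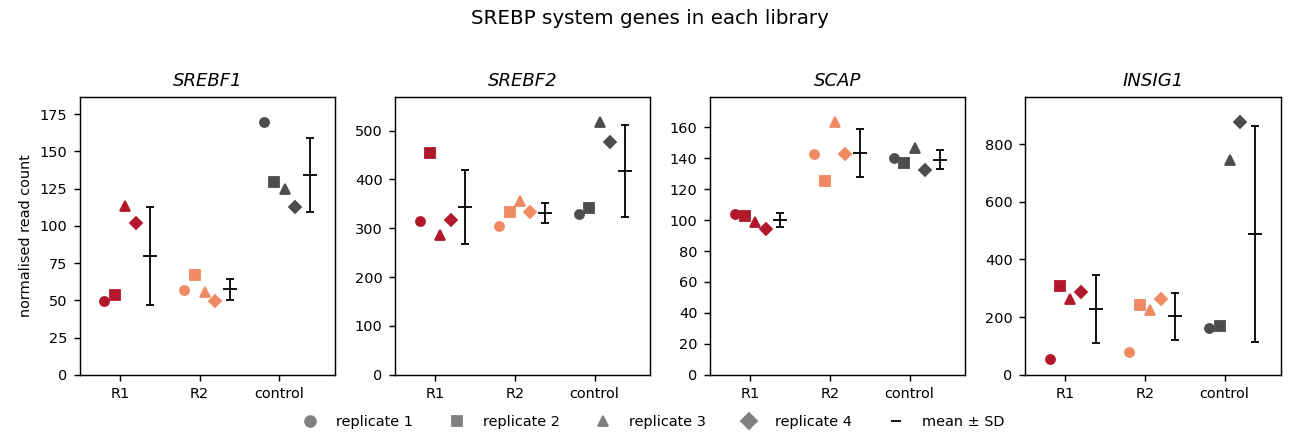
Normalised read count (vertical axis) of the 4 SREBP system genes in the 4 libraries each of R1, R2 and control, with the mean and SD of each group. SCAP is lowest in R1 (94.3 to 104), SREBF1 is below control in all 4 R2 libraries, and INSIG1 reaches 745 and 876 only in control replicates 3 and 4.

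Across the set, libraries of 1 group moved together over many members. In control, replicates 3 and 4 were both above replicates 1 and 2 in 29 of the 38 members (76.3%), against 29.7% of all listed genes. The order held for 17 of 19 sterol genes, 10 of 15 fatty acid genes, SREBF2 and INSIG1. Replicate 1 was the lowest R1 library in 28 of 38 members (73.7%), against 21.2% of all genes, and replicate 1 was the lowest R2 library in 32 of 38 (84.2%), against 19.2%. All 3 orders held at once in 24 of 38 members (63.2%), against 339 of 12931 genes (2.62%). These orders were noticed in the values of the members and are given as a description.

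The mean of control replicates 3 and 4 was 4.86 times that of replicates 1 and 2 for INSIG1. It was 4.02 times for MSMO1, the sterol methyl oxidase that acts after lanosterol, and 3.12 times for IDI1, which isomerises the isoprenoid unit. For HMGCS1, the synthase that makes HMG-CoA, the ratio was 2.91, and for MVD, which makes isopentenyl pyrophosphate, it was 2.81. On the fatty acid side ACSS2, which activates acetate, reached 3.01 and SCD, the desaturase that makes oleate, 2.44. The median ratio was 1.95 over the sterol branch, 1.18 over the fatty acid branch and 1.55 over all members, against 0.992 over all listed genes. MSMO1, chosen here after its values were seen, had 39.6, 109.8, 63.1 and 78.3 in R1, 38.5, 88.4, 94.3 and 102 in R2 and 41.5, 50.4, 173 and 197 in control. HMGCS1, likewise chosen, had 34.3, 117, 74.0 and 83.0 in R1, 23.6, 51.6, 57.0 and 75.0 in R2 and 27.3, 35.4, 82.1 and 100.1 in control. In both genes replicate 1 was the lowest library of R1 and of R2, and control replicates 3 and 4 stood clear of control replicates 1 and 2.

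The spread within groups set the precision of every comparison. Over the sterol branch the median SD of log2 values stood at 0.418 for R1, 0.351 for R2 and 0.557 for control, and over all genes at 0.239 for R1, 0.175 for R2 and 0.156 for control. For the fatty acid branch it stood at 0.230 for R1, 0.200 for R2 and 0.211 for control. Set to the control mean, the sterol branch averaged -0.11 ± 0.37 in R1, -0.16 ± 0.29 in R2 and 0 ± 0.53 in control (log2, SD, n = 4), with control libraries from -0.52 to 0.47. The standard error of a difference between groups had a median of 0.27 in the sterol branch and 0.14 in the fatty acid branch, against 0.15 over all genes.

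**Figure D2:**
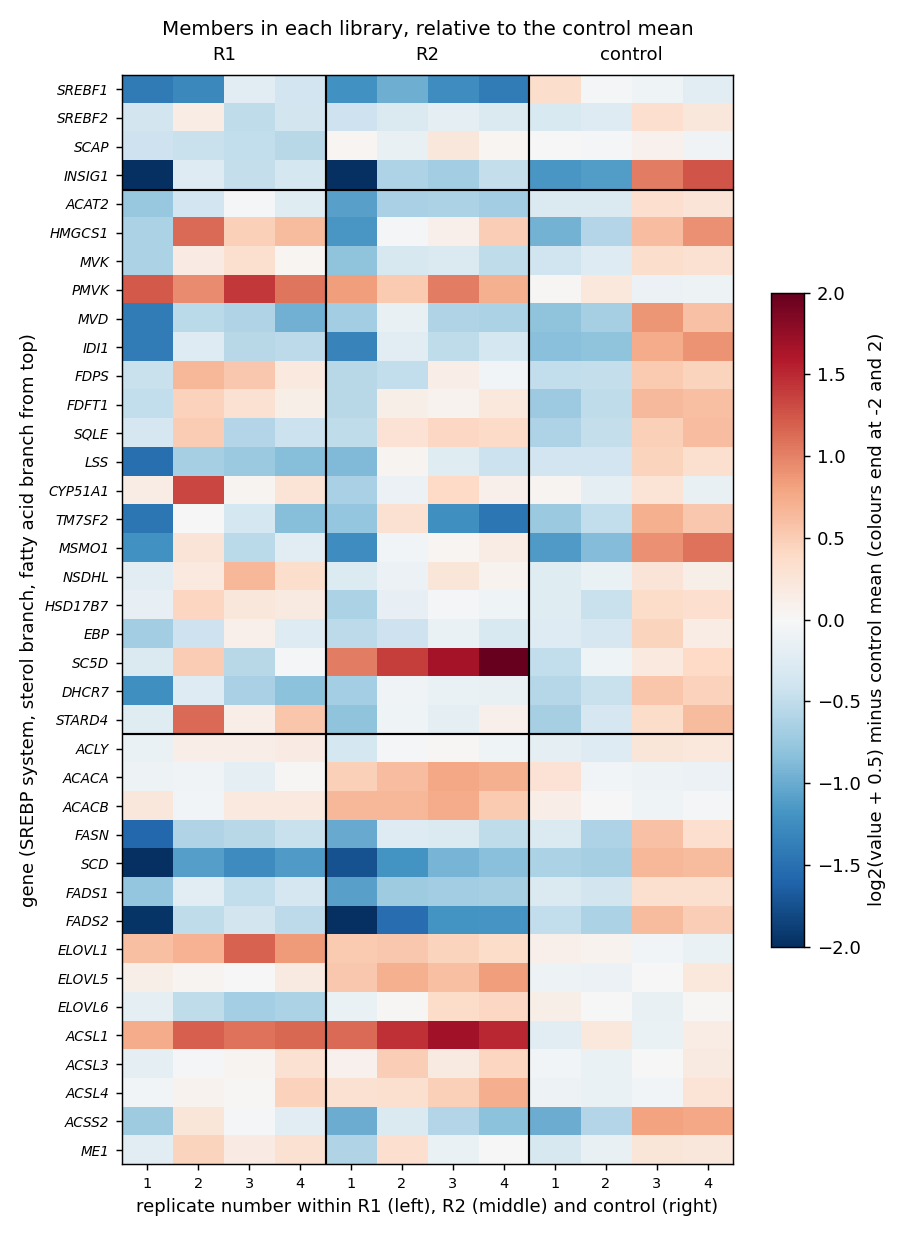
Log2 difference of each of the 38 members (rows, by branch) from its mean over the control libraries, as colour. Columns are the 12 libraries, replicates 1 to 4 of R1, R2 and control. The first column of R1 and of R2 and the first 2 columns of control are low down most of the sterol branch, and control replicates 3 and 4 are above replicates 1 and 2 in 29 of 38 members.

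The promoters of 6 members are shown, chosen after their values were seen, so that the letters SREBP and its partners are known to read can be set beside the values. SREBP binds the sterol regulatory element with NF-Y, which binds CCAAT, and Sp1, which binds GC boxes. Each line gives the 200 bases before the annotated start (RefSeq, GRCh38.p14), 5′ to 3′ on the gene's strand, with matches to TCACNCCAC (the sterol regulatory element) and to CCAAT or its reverse complement in capitals. INSIG1, MSMO1, MVD and SCD had ratios of 2.44 or more between the control pairs, SREBF2 holds a match to the sterol element, and PMVK did not share the pattern.
INSIG1, chr7:155297678-155297877, plus strand: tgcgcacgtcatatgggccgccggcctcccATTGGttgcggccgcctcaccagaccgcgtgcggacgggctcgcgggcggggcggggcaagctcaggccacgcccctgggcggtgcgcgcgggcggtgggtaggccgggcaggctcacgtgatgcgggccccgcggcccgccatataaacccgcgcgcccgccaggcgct
MSMO1, chr4:165327469-165327668, plus strand: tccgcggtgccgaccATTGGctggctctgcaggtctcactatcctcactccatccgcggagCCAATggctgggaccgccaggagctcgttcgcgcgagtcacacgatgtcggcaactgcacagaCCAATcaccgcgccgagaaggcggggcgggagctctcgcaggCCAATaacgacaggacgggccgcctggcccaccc
MVD, chr16:88663092-88663291, minus strand: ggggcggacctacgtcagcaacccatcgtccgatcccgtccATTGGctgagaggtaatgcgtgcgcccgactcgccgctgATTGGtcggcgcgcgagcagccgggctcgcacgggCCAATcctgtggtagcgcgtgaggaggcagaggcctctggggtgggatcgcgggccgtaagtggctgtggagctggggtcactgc
SCD, chr10:100347033-100347232, plus strand: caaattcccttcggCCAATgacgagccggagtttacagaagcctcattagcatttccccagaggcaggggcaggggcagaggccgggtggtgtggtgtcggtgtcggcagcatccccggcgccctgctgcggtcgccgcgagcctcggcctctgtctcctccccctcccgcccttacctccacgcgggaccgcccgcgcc
SREBF2, chr22:41832905-41833104, plus strand: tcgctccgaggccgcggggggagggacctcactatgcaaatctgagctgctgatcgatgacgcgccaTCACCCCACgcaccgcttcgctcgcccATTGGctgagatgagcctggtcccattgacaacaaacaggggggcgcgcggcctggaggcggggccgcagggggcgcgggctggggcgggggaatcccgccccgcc
PMVK, chr1:154936720-154936919, minus strand: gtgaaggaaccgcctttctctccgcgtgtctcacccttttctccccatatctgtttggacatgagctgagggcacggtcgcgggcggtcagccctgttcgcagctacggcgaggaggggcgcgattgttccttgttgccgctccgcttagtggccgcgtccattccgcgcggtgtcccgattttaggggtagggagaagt

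The searches covered both strands of the 250 bases before each annotated start, and 34 members matched the table. TCACNCCAC was found in 2 of 34 members (5.88%), SREBF2 at 133 bases and ACSL1 at 242 bases before a start, against 1.28% of 9317 listed genes with a window and 0.883% of all 35116 windows. CCAAT was found in 25 of 34 members (73.5%), against 42.4% of listed genes and 32.0% of all windows. MSMO1 held 4 such boxes and MVD 3 in the stretch shown, and PMVK held none. Members not shown also went the other way. FADS2, with a ratio of 2.19 between the control pairs, had no CCAAT, while ACACA (0.848) and ELOVL1 (0.881) had it. Of the 21 matched members in which all 3 library orders held, 17 had a CCAAT, and of the 13 others 8 had one. GGGCGG was found in 32 of 34 members (94.1%), against 75.5% of listed genes and 42.6% of all windows. Matches of the 3 motifs were counted separately and may share letters at their ends, genes with several starts have several windows, and a match is a run of letters and not a measured binding site. Other forms of the sterol element and bases further upstream were not searched, so a gene without a match may still hold an element.

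R1 was compared with control to ask how these genes stood in 1 group of tumours that progressed on the inhibitors. In the sterol branch PMVK was higher and LSS lower in R1 with no overlap between groups, and in the fatty acid branch ACSL1 and ELOVL1 were higher while SCD and ELOVL6 were lower. In all 12 of 38 members were called (31.6%), against 43.8% of all listed genes, with 3 higher (22.4% of all genes were) and 9 lower (21.4% were). The median log2 fold change was -0.14 over members and 0.01 over all genes. By branch 1 sterol gene rose and 3 fell of 19, 2 fatty acid genes rose and 4 fell of 15, and SREBF1 and SCAP fell. The groups did not overlap for all 3 that rose and for 4 of the 9 that fell. That is 7.89% of the 38 members higher without overlap, against 20.8% of all genes, and 10.5% lower without overlap, against 19.0%.

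PMVK (chr1:154924734-154936991, minus strand), the kinase that makes mevalonate pyrophosphate, had 27.3, 22.3, 31.2 and 24.4 in R1, against 11.5, 13.2, 10.4 and 10.5 in control. The lowest R1 library was well above the highest control library. PMVK rose 2.30-fold, to 26.3 ± 3.84 against 11.4 ± 1.31 in control (SD, n = 4 each; log2 fold change 1.16 with an SE of 0.14 at adjusted p = 1.8e-05). LSS (chr21:46188141-46228824, minus strand), which closes squalene epoxide into lanosterol, had 65.0, 116, 111 and 102 in R1, against 142, 142, 251 and 231 in control. All R1 libraries lay under the lowest control value, by least in R1 replicate 2. LSS fell to 98.5 ± 23.1, against 191 ± 57.8 in control (log2 fold change -0.94 with an SE of 0.24 at adjusted p = 0.00571). MVD (log2 fold change -0.87 at adjusted p = 0.0433) and DHCR7, which makes cholesterol from its last precursor (log2 fold change -0.74 at adjusted p = 0.0323), were called lower with overlapping groups.

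On the fatty acid side ACSL1 (chr4:184755595-184826818, minus strand), which joins long chain fatty acids to coenzyme A, had 16.2, 22.5, 20.7 and 21.7 in R1, against 8.05, 11.1, 8.65 and 10.6 in control. It rose 2.11-fold with every R1 library above every control library (log2 fold change 1.04 with an SE of 0.15 at adjusted p = 8.7e-05). ELOVL1, the elongase of very long saturated chains, had 106, 113, 159 and 125 in R1, against 75.0, 73.2, 67.1 and 63.6 in control (log2 fold change 0.83 with an SE of 0.12 at adjusted p = 7.4e-05). R1 replicate 3 was the highest, and the groups did not meet. SCD (chr10:100347124-100364834, plus strand), which puts the first double bond into stearate, had 319, 723, 643 and 704 in R1, against 999.7, 979, 2440.2 and 2394 in control. SCD fell to 597 ± 189 in R1, 2.85-fold below the 1703 ± 824 of control (log2 fold change -1.44 with an SE of 0.34 at adjusted p = 0.00357). Control replicates 3 and 4 were far above the rest, and without them SCD was not called on the 2 controls left (adjusted p = 0.0744). ELOVL6, which lengthens palmitate to stearate, had 58.8, 47.1, 41.5 and 42.9 in R1, against 72.7, 67.3, 60.5 and 67.8 in control (log2 fold change -0.50 with an SE of 0.14 at adjusted p = 0.00981). The highest R1 library was just below the lowest control library, and without control replicates 1 and 2 the fold change was -0.44 and was not called on the 2 controls left (adjusted p = 0.0847). FASN, the synthase that assembles palmitate (log2 fold change -0.79 at adjusted p = 0.0388), and FADS1, the delta-5 desaturase (log2 fold change -0.46 at adjusted p = 0.0467), were called lower with overlapping groups.

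The number of members that fell in R1 followed the control libraries used, in fits added after the data were seen. Since control replicates 3 and 4 were above 1 and 2 in 29 of 38 members, the shift follows from that order. It is no separate result about the members. Without control replicates 1 and 2, 16 of 38 members fell (42.1%, against 16.0% of all genes in that fit), among them IDI1, MSMO1, INSIG1, SREBF2 and EBP. Without control replicates 3 and 4 the 3 that fell (7.89%, against 16.0%) were SCAP, SREBF1 and ELOVL6. PMVK, ACSL1 and ELOVL1 rose under both choices, joined by FDFT1, the squalene synthase, in the second. The DHCR7 call ended on removal of control replicate 3 or 4 or of R1 replicate 1, 3 or 4 (highest adjusted p = 0.106), and the FASN call on removal of control replicate 3 or 4 or R1 replicate 1 (highest adjusted p = 0.127). The MVD and FADS1 calls ended on removal of the same libraries as DHCR7. They also ended without R2 replicate 3 or 4, which share the estimate of spread, and MVD without R2 replicate 1 (highest adjusted p = 0.143) and FADS1 without R2 replicate 2 (highest adjusted p = 0.145). The count of members that fell was 5 without R1 replicate 1, control replicate 3 or control replicate 4.

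R2 was compared with the same control libraries. In R2 the carboxylases ACACA and ACACB and several enzymes that lengthen or activate fatty acids were higher, while the desaturases SCD, FADS1 and FADS2 were lower. ACLY and FASN were not called. SC5D was the sterol gene with the largest rise. Of 38 members 13 were called (34.2%), against 28.4% of all listed genes, with 8 higher (13.6% of all genes were) and 5 lower (14.8% were). The median log2 fold change was -0.23 over members and 0.03 over all genes. In the fatty acid branch 6 rose and 3 fell of 15, in the sterol branch 2 rose and 1 fell of 19, and of the SREBP system SREBF1 fell. In all 8 that rose and all 5 that fell the groups did not overlap. That is 21.1% of the 38 members higher without overlap, against 18.0% of all genes, and 13.2% lower without overlap, against 16.8%, both near the share over all genes.

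ACACA (chr17:37084988-37406818, minus strand) codes for the acetyl-CoA carboxylase that makes malonyl-CoA for synthesis, and had 183, 202, 224 and 214 in R2, against 159.7, 126, 121 and 121 in control. It rose 1.56-fold, to 206 ± 17.5 against 132 ± 18.7 in control (SD, n = 4 each; log2 fold change 0.65 with an SE of 0.11 at adjusted p = 0.000468). Control replicate 1 stood above the other control libraries and still below all of R2. ACACB, the carboxylase at the mitochondrion whose product restrains fatty acid oxidation, was low, at 5.96, 5.96, 6.33 and 5.37 in R2, against 3.97, 3.54, 3.33 and 3.52 in control (log2 fold change 0.65 with an SE of 0.13 at adjusted p = 0.00169). ELOVL5 (chr6:53267398-53349179, minus strand), the elongase of polyunsaturated chains, had 222, 252, 234 and 273 in R2, against 142, 142, 153 and 178 in control (log2 fold change 0.67 with an SE of 0.10 at adjusted p = 0.000203). Its lowest R2 library was above control replicate 4, the highest of control. ACSL1 had 21.5, 27.0, 31.6 and 28.1 in R2 and rose 2.82-fold over the 9.59 ± 1.47 of control (log2 fold change 1.45 with an SE of 0.15 at adjusted p = 7.9e-06).

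SC5D (chr11:121292453-121308694, plus strand), the desaturase that makes 7-dehydrocholesterol, had 13.4, 17.3, 21.2 and 28.6 in R2, against 4.37, 5.96, 7.35 and 8.51 in control. It rose 3.08-fold (log2 fold change 1.53 with an SE of 0.26 at adjusted p = 0.000563), and R2 replicate 4 was the highest of all 12 libraries. PMVK had 20.8, 16.5, 23.7 and 19.0 in R2 and rose 1.75-fold over control (log2 fold change 0.78 with an SE of 0.14 at adjusted p = 0.000887). FADS1 (chr11:61799625-61829318, minus strand), a desaturase of polyunsaturated chains, had 93.0, 120.0, 122 and 125 in R2, against 162, 154, 248 and 247 in control. It fell to 115 ± 14.7, against 203 ± 51.9 in control (log2 fold change -0.79 with an SE of 0.17 at adjusted p = 0.00368). Its neighbour FADS2, the delta-6 desaturase, named after its values were seen, had 57.9, 93.9, 118 and 119 in R2, against 191, 174, 422 and 380.0 in control (log2 fold change -1.53 with an SE of 0.37 at adjusted p = 0.00636). Both desaturases were low in R2 replicate 1 and high in control replicates 3 and 4. The 2 genes lie next to each other on chromosome 11 and share 490 exon bases on opposite strands, so reads in that stretch cannot be assigned to one of them.

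The other members called in R2 were also named after their values were seen. SCD had 459.7, 678, 814 and 864 in R2 and fell to 704 ± 181 (log2 fold change -1.18 with an SE of 0.34 at adjusted p = 0.019), and the call ended on removal of control replicate 3 or 4 or R2 replicate 1 (highest adjusted p = 0.0670). ACAT2, the acetyl-CoA acetyltransferase at the head of the sterol branch, fell to 85.5 ± 11.7 in R2, against 147 ± 34.6 in control (log2 fold change -0.76 with an SE of 0.18 at adjusted p = 0.00538). ELOVL1 rose by less than in R1 against the same controls (log2 fold change 0.47 with an SE of 0.12 at adjusted p = 0.00867). ACSL4, which activates arachidonate, had the smallest rise among those called (log2 fold change 0.46 with an SE of 0.14 at adjusted p = 0.0225), and its call ended on removal of control replicate 1, 2 or 3 or R2 replicate 4 (highest adjusted p = 0.0741). Without control replicates 1 and 2, 16 members fell in R2 (42.1%, against 12.1% of all genes in that fit), and without control replicates 3 and 4 the 1 that fell was SREBF1 (2.63%, against 8.84%). The shift in members that fell follows from the same order of the control pairs, in fits added after the data were seen. Under either choice of controls 7 members rose (18.4%, against 9.44% and 6.87% of all genes). The first 7 were ACSL1, ACACA, PMVK, ELOVL5, ACACB, SC5D and ELOVL1, and in the second ACSL4 took the place of ELOVL1.

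**Figure D3:**
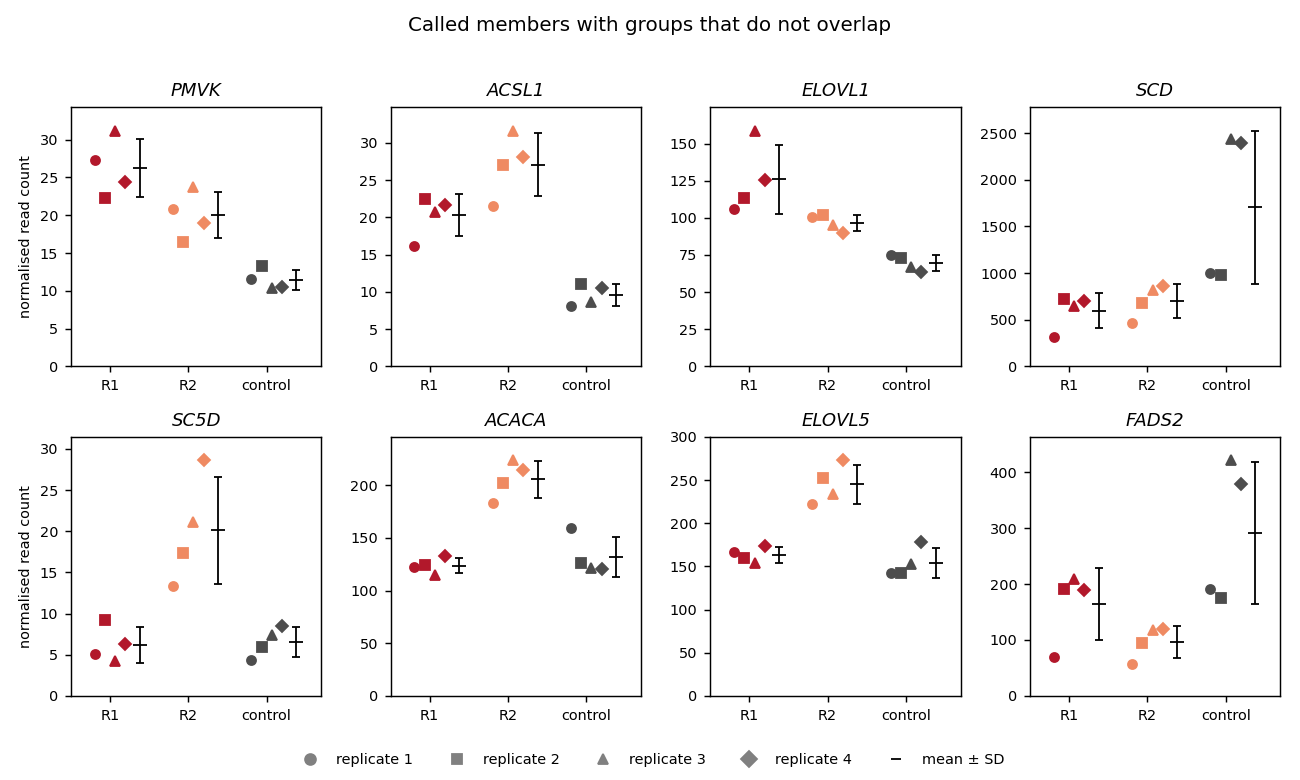
Normalised read count (vertical axes, each from 0) of 8 called members in the 4 libraries of R1, R2 and control, with mean and SD. PMVK, ACSL1 and ELOVL1 are above control in R1 and R2, SC5D, ACACA and ELOVL5 are above R1 and control in R2 alone, and SCD and FADS2 are highest in control replicates 3 and 4.

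The comparisons of R1 and of R2 with control share the 4 control libraries. Set side by side, SREBF1, SCD and FADS1 fell in both, PMVK, ACSL1 and ELOVL1 rose in both, 6 members fell in R1 and were not called in R2, 2 fell in R2 and were not called in R1, 5 rose in R2 and were not called in R1, and 19 were called in neither. A call in one comparison and not in the other does not show that R1 and R2 differ, and that difference was tested directly.

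R2 was set against R1, both from tumours on the inhibitor diet, in a comparison that uses no control library. The fatty acid enzymes ACACA, ACACB, ELOVL5 and ELOVL6, the sterol enzyme SC5D and SCAP were higher in R2 with no overlap, and ELOVL1 was lower. In all 9 of 38 members were called (23.7%), against 46.8% of all listed genes, with 7 higher in R2 (22.8% of all genes were) and 2 lower (24.0% were). The median log2 fold change was -0.03 over members and 0.00 over all genes. Of 15 fatty acid genes 5 rose and 1 fell, of 19 sterol genes 1 rose and 1 fell, and of the SREBP system SCAP rose. The groups did not overlap for 6 of the 7 that rose and 1 of the 2 that fell. That is 15.8% of the 38 members higher without overlap, against 19.1% of all genes, and 2.63% lower without overlap, against 20.3%.

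SC5D differed most, at 20.1 ± 6.50 in R2, against 6.20 ± 2.21 in R1, 3.25-fold higher (SD, n = 4 each; log2 fold change 1.62 with an SE of 0.26 at adjusted p = 0.000199). The R1 values, 5.10, 9.26, 4.18 and 6.27, overlapped those of control. ACACA was at 206 ± 17.5 in R2, against 124 ± 7.28 in R1 (log2 fold change 0.73 with an SE of 0.11 at adjusted p = 9.3e-05). ELOVL5 was at 245 ± 22.3 in R2, against 163 ± 8.79 in R1 (log2 fold change 0.58 with an SE of 0.10 at adjusted p = 0.000363). ACACB was at 5.91 ± 0.398 in R2, against 4.02 ± 0.399 in R1 (log2 fold change 0.51 with an SE of 0.13 at adjusted p = 0.00504). For these 4 genes R1 was not called against control, so the higher R2 level appears in both comparisons that include R2. ELOVL6 had 61.0, 67.8, 86.1 and 89.4 in R2, against 58.8, 47.1, 41.5 and 42.9 in R1 (log2 fold change 0.67 with an SE of 0.14 at adjusted p = 0.00144). Here R1 was the group below control, and R2 overlapped control. ELOVL1 was at 96.8 ± 5.42 in R2, against 126 ± 23.3 in R1 (log2 fold change -0.36 with an SE of 0.12 at adjusted p = 0.0219), and this call did not survive the removal of R1 replicate 3 or of R2 replicate 4 (highest adjusted p = 0.0605).

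ACSL1 was called higher and PMVK lower in R2 than in R1 with overlapping groups, both named after their values were seen. ACSL1 (log2 fold change 0.41 at adjusted p = 0.0397) lost its call on removal of R2 replicate 2, 3 or 4 or R1 replicate 1 or 3 (highest adjusted p = 0.120). PMVK (log2 fold change -0.39 at adjusted p = 0.0354) lost its call on removal of R2 replicate 1, 2 or 4 or R1 replicate 1 or 3 (highest adjusted p = 0.101). The count of members lower in R2 was 8 without R1 replicate 1, 1 without R2 replicate 1 or 2, and 0 by limma without R1 replicate 3 or R2 replicate 4, where 2 and 4 members were lower at an unadjusted p under 0.05. In fits of group means on all libraries it was 2 by limma and by edgeR, and 3 by DESeq2 and by limma on plain CPM.

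**Figure D4:**
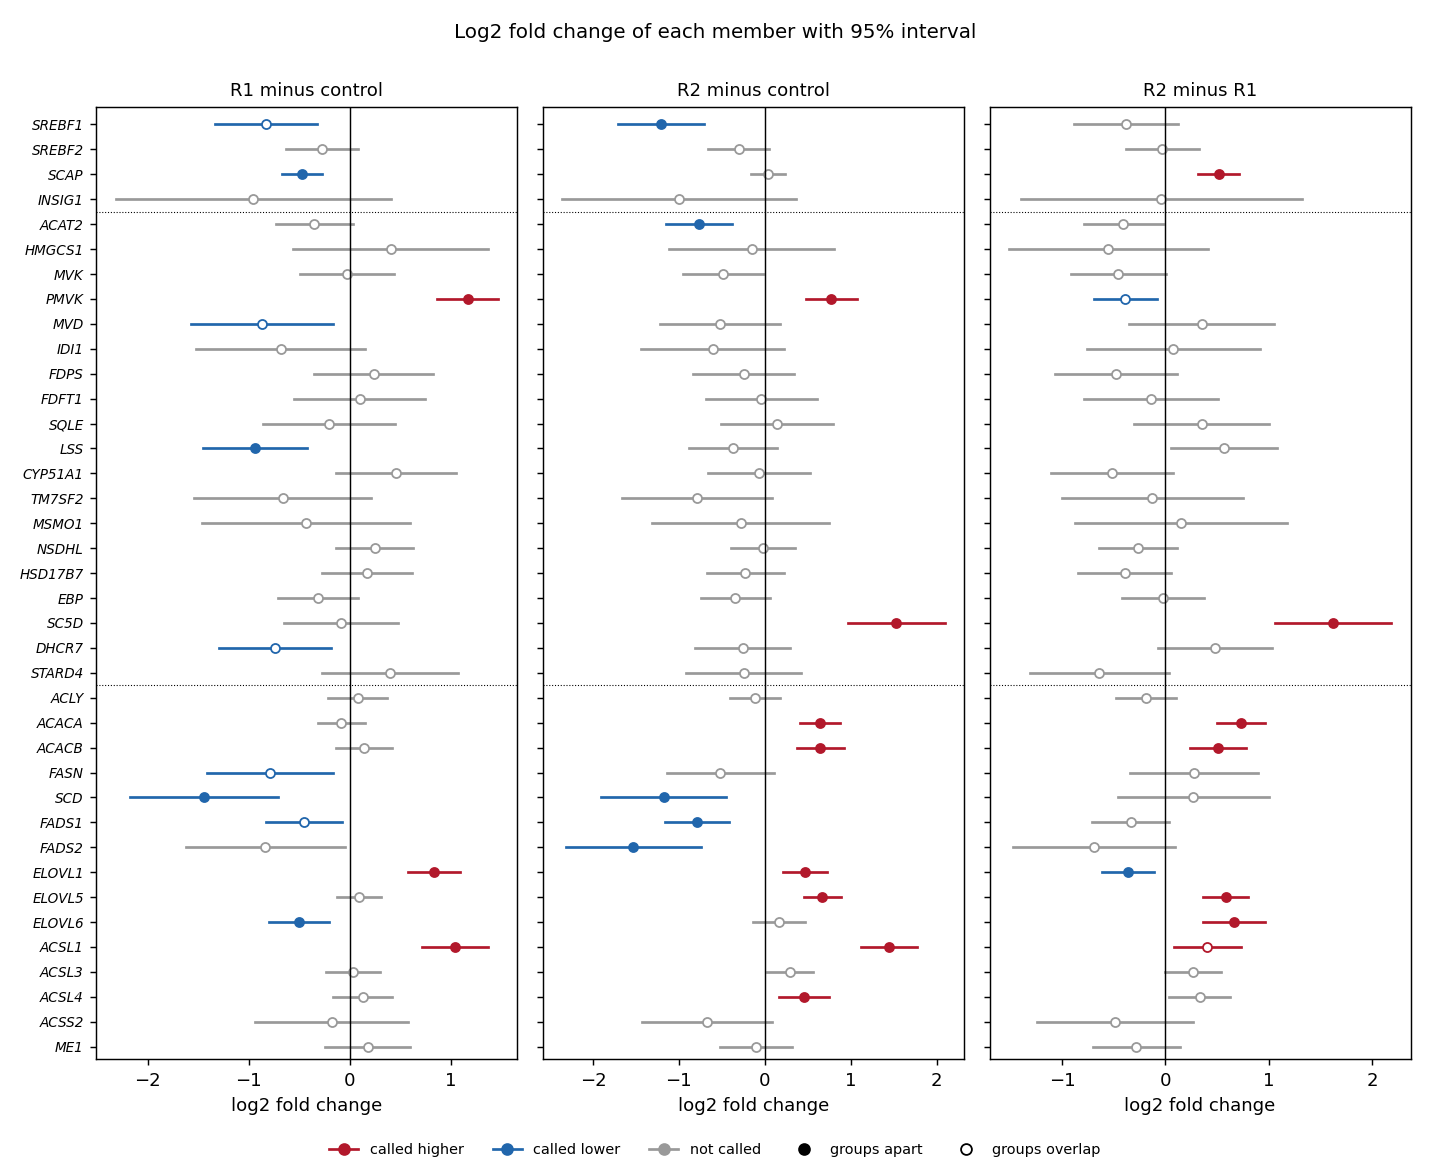
Log2 fold change of the 38 members (rows) with its 95% interval for R1 minus control, R2 minus control and R2 minus R1, where filled points mark groups that do not overlap. Intervals are wide for INSIG1, HMGCS1, MSMO1 and TM7SF2. In R2 minus R1, 7 members were called higher (18.4%, against 22.8% of all listed genes) and 2 lower (5.26%, against 24.0%).

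The 19 members called in no comparison were SREBF2, INSIG1, HMGCS1, MVK, IDI1, FDPS, FDFT1, SQLE, CYP51A1, TM7SF2, MSMO1, NSDHL, HSD17B7, EBP, STARD4, ACLY, ACSL3, ACSS2 and ME1. Among them MVK, IDI1, FDPS and FDFT1 carry mevalonate towards squalene, on the same path as PMVK and MVD. Their log2 fold changes ran from -0.95 to 0.45 in R1 against control, from -0.996 to 0.30 in R2 against control and from -0.64 to 0.35 in R2 against R1, with adjusted p of 0.0934 or more. Their 95% intervals had a median width of 1.19, so differences of moderate size could not be resolved among these libraries. None of them had groups that stood apart. ACLY, which splits citrate to give cytosolic acetyl-CoA, lay at 589.6 ± 53.6 in R1, 517 ± 54.8 in R2 and 564 ± 101 in control. SQLE, the squalene epoxidase, lay at 112 ± 42.8 in R1, 140.4 ± 36.3 in R2 and 132 ± 56.5 in control. In both genes the 3 groups overlapped. HSD17B7 and FDPS have near-identical copies elsewhere in the genome, MVK shares 306 exon bases with MMAB and ACAT2 shares 397 with TCP1, so their counts are less certain.

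Levels between genes were compared per kilobase of merged exon (GENCODE release 29). FASN had the highest level of all members in each group, with 189 in R1, 223 in R2 and 330.2 in control, followed by SCD in control with 111 in R1, 131 in R2 and 318 in control. Among sterol genes FDPS, which makes farnesyl pyrophosphate, was highest, with 75.1 in R1, 52.7 in R2 and 64.6 in control. CYP51A1, the lanosterol demethylase, was among the lowest, with 1.28 in R1, 0.817 in R2 and 0.836 in control, against a median over the sterol branch of 20.5 in R1, 17.1 in R2 and 18.5 in control. SC5D was also low, with 1.11 in R1, 3.62 in R2 and 1.18 in control, so its rise in R2 left it well below the branch median. ACACB was the lowest of all members, with 0.277 in R1, 0.407 in R2 and 0.248 in control.

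In the genes around the set, taken from lists of sterol processing, uptake and storage, further fatty acid enzymes, and triglyceride and phospholipid synthesis, 62 were measured. Of these 12 rose and 10 fell in R1 against control, 15 rose and 7 fell in R2 against control, and 13 rose and 12 fell in R2 against R1. These are 35.5%, 35.5% and 40.3% of the 62, against 43.8%, 28.4% and 46.8% of all listed genes in the same comparisons. In triglyceride and phospholipid synthesis 4 of 14 rose in R1 against control (28.6% called, against 43.8% of all genes), and 7 rose and 1 fell in R2 against control (57.1%, against 28.4%). The largest change was in DGAT2, which adds the last fatty acid to triglyceride. DGAT2 had 9.61, 17.2, 8.73 and 7.72 in R1, 1.77, 1.91, 5.83 and 4.82 in R2 and 0.160, 0.156, 0.156 and 0.473 in control, with 20 reads in the 4 control libraries together. All R1 libraries were above all R2 libraries, which were above all control libraries (R1 against control, log2 fold change 3.90 with an SE of 0.33 at adjusted p = 6.6e-07; R2 against control, log2 fold change 2.35 with an SE of 0.33 at adjusted p = 0.000117). CHKA, the choline kinase of phosphatidylcholine synthesis, rose in R2 to 16.5 ± 1.24, against 10.8 ± 0.624 in control (log2 fold change 0.58 with an SE of 0.11 at adjusted p = 0.00139). In R1 CHKA was at 14.6 ± 1.44, also with every library above every control library.

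Of 20 further fatty acid genes 3 rose and 8 fell in R1 against control, 5 rose and 4 fell in R2 against control, and 7 rose and 4 fell in R2 against R1. These are 55.0%, 45.0% and 55.0% of the list, against 43.8%, 28.4% and 46.8% of all listed genes. ELOVL7, an elongase of saturated long chains, had 0.243, 0.658, 0.342 and 0.834 in R1, 3.69, 6.38, 4.59 and 5.05 in R2 and 4.73, 4.32, 5.21 and 6.46 in control. R1 stood below both other groups in every library (R1 against control, log2 fold change -2.50 with an SE of 0.21 at adjusted p = 6.7e-07), and R2 overlapped control. ELOVL2, an elongase of polyunsaturated chains, was at 48.8 ± 2.25 in R2, against 22.5 ± 3.60 in R1 (log2 fold change 1.11 with an SE of 0.12 at adjusted p = 8.7e-06). SCD5, the second stearoyl desaturase, was at 55.5 ± 5.49 in R2, against 31.2 ± 2.89 in R1 (log2 fold change 0.82 with an SE of 0.10 at adjusted p = 2.4e-05). ACSS1, the mitochondrial acetate enzyme, was at 9.36 ± 1.57 in R2, against 3.79 ± 0.699 in R1 (log2 fold change 1.199 with an SE of 0.16 at adjusted p = 3.9e-05). ELOVL4, which makes very long chains, was at 10.7 ± 1.28 in R2, against 5.31 ± 1.26 in control (log2 fold change 0.97 with an SE of 0.17 at adjusted p = 0.000575). In ELOVL2, SCD5 and ACSS1 control lay between R2 and R1.

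Among 15 genes of sterol uptake, transport, efflux and storage 3 rose and 1 fell in R1 against control (26.7% called, against 43.8% of all genes), and 2 rose and 2 fell in R2 against control (26.7%, against 28.4%). MYLIP, the ubiquitin ligase that removes lipoprotein receptors, had 7.23, 10.2, 9.61 and 11.6 in R1, 8.17, 8.61, 6.80 and 7.16 in R2 and 4.49, 4.60, 3.23 and 3.41 in control. It rose in both R1 (log2 fold change 1.19 with an SE of 0.17 at adjusted p = 5.7e-05) and R2 (log2 fold change 0.89 with an SE of 0.17 at adjusted p = 0.00103) with no overlap with control. NR1H3, which codes for the oxysterol receptor LXR alpha, was at 7.72 ± 1.01 in R1, against 16.1 ± 2.53 in control (log2 fold change -1.01 with an SE of 0.14 at adjusted p = 7.5e-05). In R2 NR1H3 was at 11.3 ± 1.51, and its highest R2 library (13.5) was just below the lowest of control (13.6). Of 13 further genes of SREBP processing and sterol synthesis 2 rose and 1 fell in R1 against control (23.1% called, against 43.8% of all genes), and 1 rose in R2 against control (7.69%, against 28.4%).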

How the data were processed

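RNA was measured by sequencing in 12 libraries (TruSeq RNA Library Prep Kit v2, which does not mark strand, per the labels). STAR, edgeR and GRCh38 are named in the submitters' processing notes, with versions not given in the sources used here. Each deposited table holds normalised signal values that the authors scaled by library size. Each value (100% of them) came out as a whole number of reads, to within 0.001, once divided by the smallest step of its library, and these recovered reads give the depth.

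limma 3.58.1 (R 4.3.3; trended empirical Bayes) was fitted to log2(value + 0.5) of 12931 genes in all 12 libraries with 3 group means, and p-values were adjusted by Benjamini-Hochberg over all genes. edgeR 4.0.16 on recovered reads, as an alternative, called 5645 genes in R1 minus control (limma 5667), 3564 in R2 minus control (3667) and 5988 in R2 minus R1 (6053). DESeq2 1.42.0, 2 other pseudocounts, other scalings, a filter, a replicate block, 2-group fits and leaving libraries out were also tried. The code was tested on simulated data. Coordinates came from GENCODE release 29 (GRCh38).

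Members and lists were chosen with earlier results of these data known. Full values were given for the SREBP system and for called members with groups apart, at most 8 per comparison by adjusted p, and for up to 4 related genes per comparison.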

Additional observations from a re-analysis of the deposited data

Results flagged for a closer look

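In 11 of 114 groups of 4 libraries, 1 library stood so far from the other 3 that its gap to the nearest of them, as a share of the whole range, exceeded Dixon's 95% critical value, and chance gives about 1 group in 20. In R1 the highest library was apart for SQLE (175) and CYP51A1 (8.29), both in replicate 2, and the lowest for ACLY (509.8) and FADS2 (69.4), both in replicate 1, and for ACACB (3.42) in replicate 2. In R2 the lowest library was apart for ACAT2 (68.1), DHCR7 (109.7) and FADS1 (93.0), all in replicate 1, and the highest for MVD (69.3) in replicate 2. In control the highest library was apart for ACACA (159.7) in replicate 1 and for ACSL4 (138.7) in replicate 4.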

How the results depend on the processing

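Of the 34 calls of members, 17 were kept under every alternative and 17 were lost under at least 1, of which 9 were lost when 1 library was left out. PMVK and ACSL1 (both against control), ELOVL1 and SCAP (R1), SREBF1, SC5D, ACACA, ACACB and ELOVL5 (R2) kept their calls against control throughout, as did SC5D, ACACA, ACACB, ELOVL5, ELOVL6 and SCAP in R2 against R1. The filter on a mean value of 5 left out ACACB and CYP51A1, so they were not tested there. Leaving out pairs of control libraries was added after the data were seen. Members lower in R1 than control numbered 9, with 16 when control replicates 1 and 2 were left out and 3 when replicates 3 and 4 were, and in R2 they numbered 5, with 16 and 1 on the same choices. With 1 library left out, members lower numbered 5 to 10 in R1, 4 to 6 in R2 and 0 to 8 in R2 against R1 (2 on all libraries). Higher members numbered 3 in R1 in every such fit, 7 to 8 in R2 and 6 to 9 in R2 against R1. Of R2 against R1, 1 was lower when 2 groups alone were fitted.

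Replicate numbers were not taken to pair the libraries, since in each comparison at least 1 same-numbered pair correlated at or below 0.1. Same-numbered libraries correlated at -0.31 to 0.387 (R1 and control), -0.216 to 0.0851 (R2 and control) and 0.0742 to 0.133 (R2 and R1), and 3, 2 and 6 of 8 libraries correlated best with their own number, so R2 and R1 came closest to pairing, a hint from the data and not from the design. The replicate block gave 12 lower members in R1, 7 in R2 and 7 in R2 against R1, with 3, 9 and 9 higher.

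Reversed signs were all in uncalled differences. Leaving out control replicates 3 and 4 gave 0.18 (R1) and 0.14 (R2) for INSIG1 and 0.0064 for SREBF2 (R1). With 1 library left out, R2 minus R1 ran from -0.63 to 0.36 for INSIG1 and from -0.11 to 0.11 for SREBF2, and SCAP in R2 against control from -0.0248 to 0.10. The cause was not tested. The lowest members, CYP51A1 and ACACB, had 1.72 or more per library where 1 read is worth at most 0.0525. The part of depth was not tested.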
